A study of Homo sapiens with 12 samples.

Results

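The enzymes that make, salvage and degrade thymidine nucleotides, together with the ribonucleotide reductase subunits that supply the other deoxynucleotides, were followed in an established melanoma line of human origin, WM35. The 9 genes were chosen by symbol, as the targets, activators and degraders of thymidine analogs and the suppliers of deoxynucleoside triphosphates (dNTPs): TYMS, TK1, TK2, DUT, RRM1, RRM2, RRM2B, TYMP and DTYMK. Of these, 8 genes had at least 1 probe on the array, with 13 probes among 47230. For DTYMK, the kinase that turns thymidine monophosphate into the diphosphate, the probe-gene table used here named no probe, so it was not analysed here. Probes detected on at least 2 arrays were tested, which kept 9 member probes of 8 genes among 24325 probes.

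Gene expression was measured on 12 Illumina 1-colour arrays of 1 BeadChip. Cells given only the vehicle DMSO were on 2 arrays, with no time in their titles. Trifluridine (trifluorothymidine, TFT) was present for 8 h (3 arrays) or 24 h (2 arrays), and so was lactimidomycin (LTM), an inhibitor of translation elongation (3 and 2 arrays). Doses of both were those that had inhibited the cells by 75% in a test of 72 h, and so were matched on a later growth readout and not on the transcripts. Nothing in the labels says that replicates were separate cultures, and p-values therefore measure only the spread between these arrays. An array of all cells together cannot tell fewer expressing cells from less RNA per cell.

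Thymidylate enters DNA synthesis by a pair of routes. Thymidylate synthase (TYMS) methylates deoxyuridylate with a folate donor, and thymidine kinases (TK1 in the cytosol, TK2 in mitochondria) phosphorylate salvaged thymidine. DUT destroys dUTP and so delivers deoxyuridylate to TYMS, thymidine phosphorylase (TYMP) breaks thymidine and trifluridine down, and ribonucleotide reductase, built from RRM1 with RRM2 or with the p53-inducible RRM2B, makes deoxynucleotides from ribonucleotides. Trifluridine is activated by TK1, its monophosphate inhibits TYMS, and its triphosphate is built into DNA. Several genes of the group, TYMS, TK1, DUT, RRM1 and RRM2 among them, are known to be transcribed mainly around S phase under E2F factors.

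The stretch before the TYMS start site, and the short windows around E2F-type matches of other members, are printed because most of these genes changed together below, with RRM1 shown as one that did not. Sequences are those of RefSeq on GRCh38.p14, 5′ to 3′ on the gene's strand, and capitals mark the match. The letters searched were TTCCCGC or TTGGCGC or TTCGCGC or TTGCCGC on both strands, in windows of 300 bases around each start site. A match is a description of letters and not a binding site.
TYMS, chr18:657403-657652, plus strand: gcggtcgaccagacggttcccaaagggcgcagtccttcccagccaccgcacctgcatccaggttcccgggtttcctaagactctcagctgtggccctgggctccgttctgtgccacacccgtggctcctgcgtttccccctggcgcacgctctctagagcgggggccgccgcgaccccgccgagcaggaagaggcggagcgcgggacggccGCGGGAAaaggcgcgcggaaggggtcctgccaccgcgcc
TK1, chr17:78187046-78187075, minus strand: aagcggtcggcGCGGGAAccaggggcttac
DUT, chr15:48332144-48332173, plus strand: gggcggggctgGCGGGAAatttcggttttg
DUT, chr15:48332160-48332189, plus strand: aaatttcggttTTGGCGCgctccctgcggc
RRM2, chr2:10122365-10122394, plus strand: ggggcccgcgcGCGCCAAggccgccgagac
RRM1, chr11:4094451-4094480, plus strand: caagaaaaacgTTCCCGCcggttaggtttt
TYMP, chr22:50529981-50530010, minus strand: tggaccgctgtGCGCGAAccctgaacccta
The first base of the match lay 39 bases upstream of a start site in TYMS, 12 in TK1 and 42 and 26 in DUT. It lay 192 bases upstream in RRM2, 223 in RRM1 and 14 bases downstream in TYMP. In DUT only the start site at 48332197 had matches, and the others, among them 48331095, had none. TK1, RRM2 and TYMP each also had a start site without a match. Such a match was present near a start site of 6 of the 8 members in the promoter table, against 15.2% of 27167 genes, and in 6 of their 14 windows, against 12.9% of 34943 windows. TK2 and DTYMK had none of these letters in their windows. RRM2B was not in the promoter table, so it was not searched. CCAAT was present in windows of 5 of the 8 members (39.8% of all genes) and TTTGAA, the core of the cell cycle homology region, in windows of 2 (18.2%). A match was present both in RRM1, which passed no test below, and in RRM2, which passed several.

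Between 19485 and 20551 probes were detected on an array, and the number of arrays limits the precision. The melanocyte lineage factors SOX10 and MITF were detected on all 12 arrays, while the pigment genes MLANA, TYR and TYRP1 and the melanocytic marker S100B were detected on none. No keratinocyte marker of the 3 with a probe was detected on any array. Among 5 fibroblast markers only LUM was detected on all 12, and among the 4 leukocyte markers with a probe only CD14.

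Over the 9 member probes, 5 arrays lay closer to an array of another label than to any of their own, among them 3 that were already in doubt from earlier results of these data. The root mean square difference in log2 intensity between the array labelled LTM 8 h replicate 1 and TFT 24 h replicate 2 was 0.09, below the 0.12 between the DMSO arrays, whereas it was 0.34 and 0.38 from the other LTM 8 h arrays. The array labelled TFT 8 h replicate 3 differed by 0.21 and 0.29 from LTM 8 h replicates 2 and 3, and by 0.43 and 0.48 from the other TFT 8 h arrays. The array labelled TFT 24 h replicate 1 differed by 0.19 and 0.22 from TFT 8 h replicates 1 and 2, and by 0.34 from the other TFT 24 h array. These 3 arrays had the same nearest labels over all 24325 probes. The other two were TFT 24 h replicate 2, the near neighbour of LTM 8 h replicate 1 over all probes too, and TFT 8 h replicate 2, at 0.13 from DMSO replicate 1 and 0.17 from TFT 8 h replicate 1. Over all probes the latter lay nearer to TFT 8 h replicate 1 (0.26) than to DMSO replicate 1 (0.32). Member counts are given for the 12 arrays as labelled and again for the 9 arrays left without the 3 in doubt, whose labels were not changed. In the latter fit TFT 24 h holds 1 array, which is assumed to vary like the other groups.

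**Figure D1:**
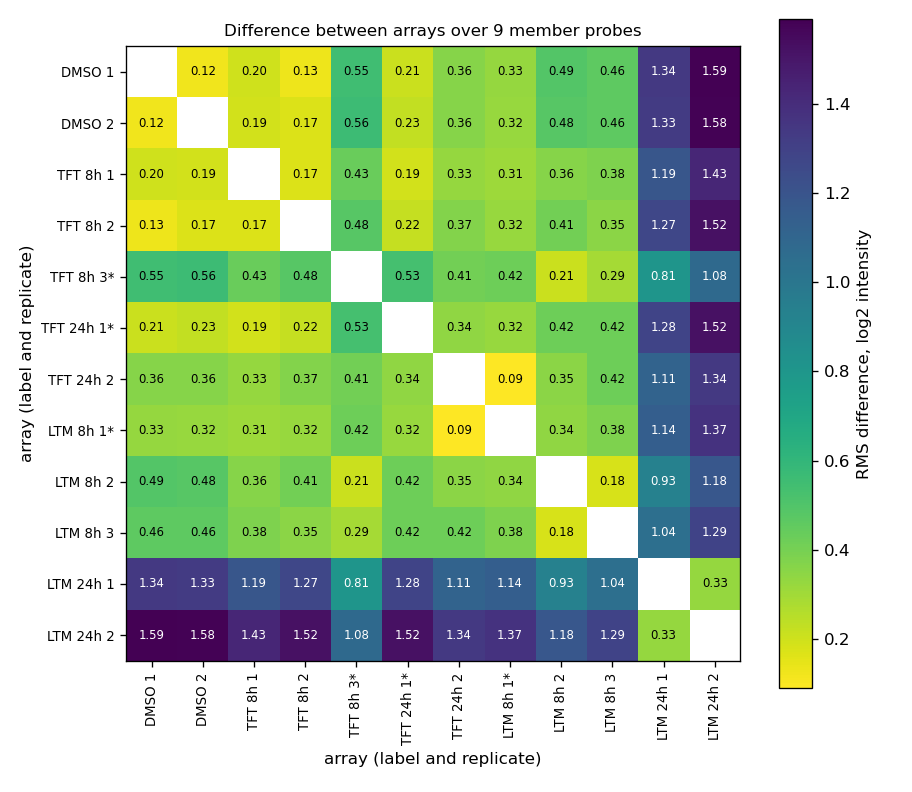
Root mean square difference in log2 intensity over the 9 member probes for each pair of the 12 arrays, with the value printed in each cell. Asterisks mark the 3 arrays left out of the 9-array fit, among them LTM 8 h replicate 1 at 0.09 from TFT 24 h replicate 2. The LTM 24 h arrays differ by 0.81 or more from every array of another label.

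After 24 h of LTM, transcripts of TYMS, TK1, DUT, RRM2 and TYMP fell and RRM2B rose against DMSO, while RRM1 and TK2 did not pass the test. With limma and Benjamini-Hochberg adjustment over all probes, 7 of 9 member probes passed an adjusted p of 0.05 (6 lower, 1 higher). That comparison called 40.9% of all probes, 20.9% lower and 20% higher. The median log2 fold change of the member probes was -1.26, against -0.05 over all probes, and 6 of the 9 moved by 1 or more log2 units, against 24.2% of all probes. Neither group of this comparison includes any of the 3 arrays, and on 9 arrays the same counts of 6 and 1 were found against a background of 54.3%. The LTM 24 h and DMSO arrays did not overlap in 8 of the 9 member probes, and in 74.5% of all probes. Against TFT 24 h there was no overlap in 8 member probes and 70.9% of all probes. Against LTM 8 h it was 7 and 56%. The share of all probes in which LTM 24 h lay apart from every other array was not counted. LTM 24 h shares its DMSO arrays with the comparisons of the other treatments.

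**Figure D2:**
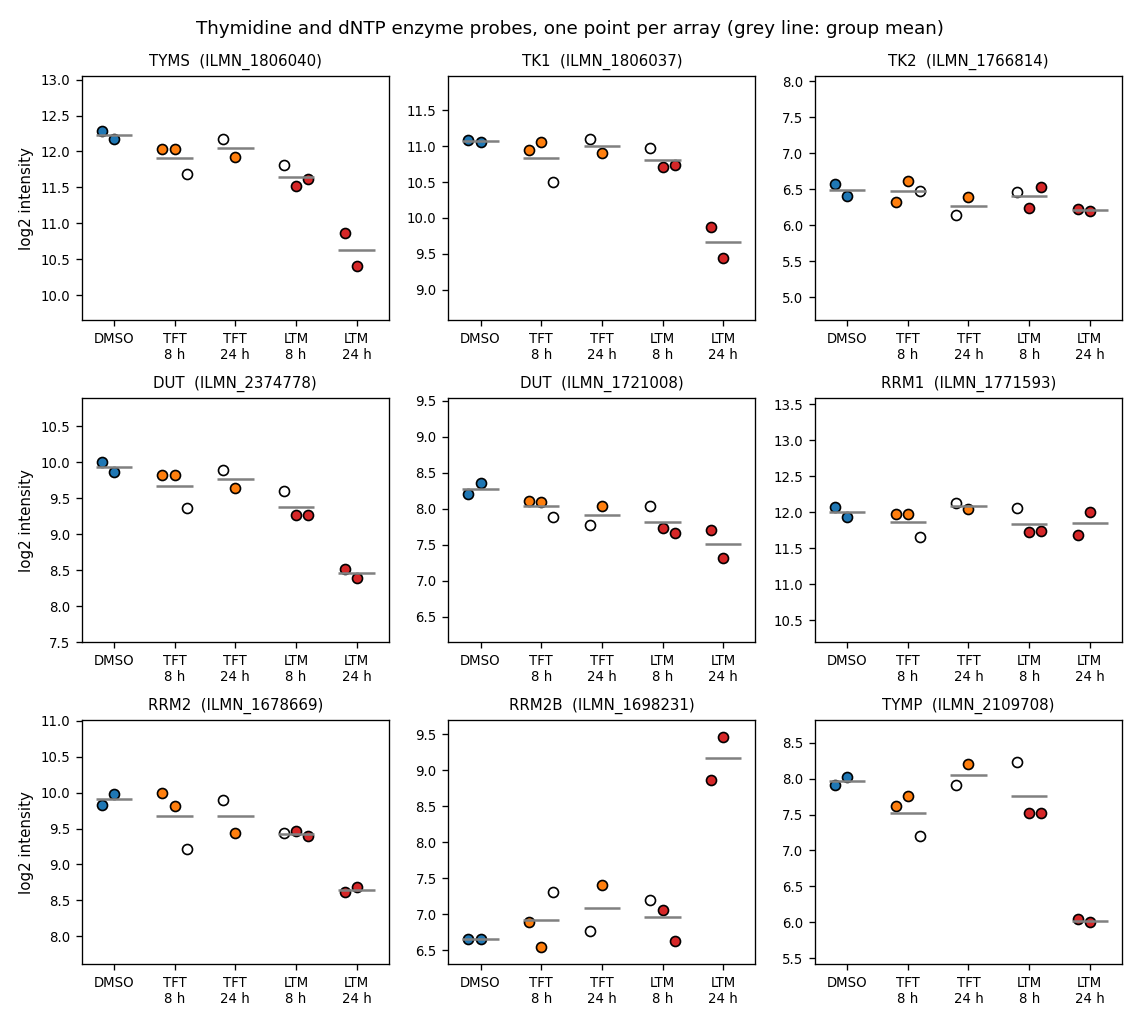
Log2 intensity of each member probe, 1 point per array, with the group mean as a grey line. Blue points are DMSO, orange TFT and red LTM, and white points are the 3 arrays left out of the 9-array fit. Every panel spans the same height on the log2 axis. LTM 24 h lies apart from all other arrays in TYMS, TK1, the DUT probe ILMN_2374778, RRM2, RRM2B and TYMP. Over all probes, LTM 24 h and DMSO did not overlap in 74.5%.

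TYMS (probe ILMN_1806040, chromosome 18, 657653 to 673578, GRCh38.p14) is the enzyme that the trifluridine monophosphate blocks. Its log2 intensity was 12.29 and 12.18 in DMSO, 12.03, 12.03 and 11.68 in TFT 8 h, 12.17 and 11.92 in TFT 24 h, 11.81, 11.52 and 11.62 in LTM 8 h, and 10.86 and 10.41 in LTM 24 h. Both LTM 24 h arrays lay below all 10 others. The fall against DMSO was -1.60 on the log2 scale (SE 0.20, 95% confidence interval -2.05 to -1.15, limma adjusted p = 0.000213), or 3.04-fold. Group means ran from DMSO (12.24 ± 0.08 SD, n = 2) over TFT 24 h (12.05 ± 0.17, n = 2), TFT 8 h (11.91 ± 0.20, n = 3) and LTM 8 h (11.65 ± 0.15, n = 3) to LTM 24 h (10.64 ± 0.32, n = 2). Of the steps between neighbours in that order, only the one from LTM 8 h to LTM 24 h passed the test (-1.01, limma adjusted p = 0.00167). Without the 3 arrays in doubt TFT 8 h was at 12.03 and TFT 24 h, then 1 array, at 11.92. The order of the TFT groups was then reversed.

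TK1 (probe ILMN_1806037, chromosome 17, 78174079 to 78187204) is the cytosolic kinase that activates thymidine and trifluridine. It was at 11.08 and 11.05 in DMSO, 10.95, 11.06 and 10.50 in TFT 8 h, 11.10 and 10.90 in TFT 24 h, 10.97, 10.71 and 10.74 in LTM 8 h, and 9.87 and 9.45 in LTM 24 h. The lowest array outside LTM 24 h was the one labelled TFT 8 h replicate 3. LTM 24 h was below every other array, with a log2 fold change of -1.41 against DMSO (SE 0.22, limma adjusted p = 0.000561). TK2 (probe ILMN_1766814), its mitochondrial counterpart, ranged only from 6.14 to 6.61 over the 12 arrays. The LTM 24 h arrays were at 6.22 and 6.20 and DMSO at 6.57 and 6.41, a log2 difference of -0.28 with a 95% confidence interval of -0.65 to 0.10 (limma adjusted p = 0.231). A fall of the size seen in TK1 lies outside that interval, though the TK1 and TK2 changes were not tested against each other.

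DUT (chromosome 15, 48331095 to 48343373) was read by 2 probes, which agreed in direction but not in size. Probe ILMN_2374778 was at 10 and 9.86 in DMSO, 9.82, 9.82 and 9.36 in TFT 8 h, 9.90 and 9.64 in TFT 24 h, 9.60, 9.27 and 9.27 in LTM 8 h, and 8.52 and 8.39 in LTM 24 h. It fell by 1.47 at LTM 24 h (SE 0.20, limma adjusted p = 0.000324), with no overlap with any other group. Probe ILMN_1721008 was at 8.20 and 8.36 in DMSO, 8.11, 8.10 and 7.89 in TFT 8 h, 7.78 and 8.04 in TFT 24 h, 8.04, 7.73 and 7.66 in LTM 8 h, and 7.70 and 7.32 in LTM 24 h. Its LTM 24 h arrays overlapped those of LTM 8 h. Its fall was -0.77 (SE 0.20, limma adjusted p = 0.00886), and the call was lost without DMSO replicate 2 (-0.69, adjusted p = 0.0678) or without LTM 24 h replicate 2 (-0.58, adjusted p = 0.0854). The 2 probes are annotated to different DUT transcripts, but which transcripts each probe reads was not examined here.

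The ribonucleotide reductase subunits went 3 ways. The large subunit RRM1 (probe ILMN_1771593, chromosome 11) stayed between 11.65 and 12.13 over all arrays, with 12.08 and 11.94 in DMSO and 11.69 and 12.01 in LTM 24 h. Those groups overlapped, and the difference of -0.16 (95% confidence interval -0.58 to 0.26, limma adjusted p = 0.555) did not pass. Scaling arrays on their 75th percentile moved it to -0.53 (adjusted p = 0.0735), still short of the threshold.

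RRM2 (probe ILMN_1678669, chromosome 2), the small subunit of the S phase enzyme, was at 9.83 and 9.98 in DMSO, 10, 9.81 and 9.21 in TFT 8 h, 9.90 and 9.44 in TFT 24 h, 9.44, 9.46 and 9.39 in LTM 8 h, and 8.62 and 8.68 in LTM 24 h. LTM 24 h lay below all others, and the fall was -1.26 (SE 0.24, limma adjusted p = 0.00202). In RRM2 the array labelled LTM 8 h replicate 1 did not stand apart from the others of its label.

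RRM2B (probe ILMN_1698231, chromosome 8), the small subunit used outside S phase and after DNA damage, moved the other way. It was at 6.65 and 6.66 in DMSO, 6.89, 6.54 and 7.31 in TFT 8 h, 6.76 and 7.41 in TFT 24 h, 7.19, 7.06 and 6.62 in LTM 8 h, and 8.87 and 9.46 in LTM 24 h. Both LTM 24 h arrays were above the other 10, and the rise was 2.51 (SE 0.31, 95% confidence interval 1.84 to 3.18, limma adjusted p = 0.000174), or 5.70-fold. It ranked 274 among the rises of all 24325 probes. The second RRM2B probe, ILMN_2170595, was detected on 0 of 12 arrays and stayed between 4.38 and 4.95, also in LTM 24 h (4.41 to 4.84). The rise therefore rests on 1 of the 2 probes.

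TYMP (probe ILMN_2109708, chromosome 22), which breaks thymidine and trifluridine down, had the largest fall of the members. It was at 7.91 and 8.02 in DMSO, 7.62, 7.76 and 7.20 in TFT 8 h, 7.91 and 8.20 in TFT 24 h, 8.23, 7.52 and 7.52 in LTM 8 h, and 6.05 and 6.0 in LTM 24 h. LTM 24 h did not overlap any group, and the log2 fold change was -1.94 (SE 0.26, 95% confidence interval -2.50 to -1.37, limma adjusted p = 0.000268), or 3.83-fold lower. It ranked 352 among the falls of all probes. The probe was dim in LTM 24 h, with scanner intensities of 57.7 and 52.8, near those of TK2. Under the alternative settings its log2 fold change ran from -1.99 to -1.52. Of the 3 other TYMP probes, ILMN_3223126 was detected on 1 array and ILMN_3297126 and ILMN_1690939 on 0, so they give no second reading.

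**Figure D3:**
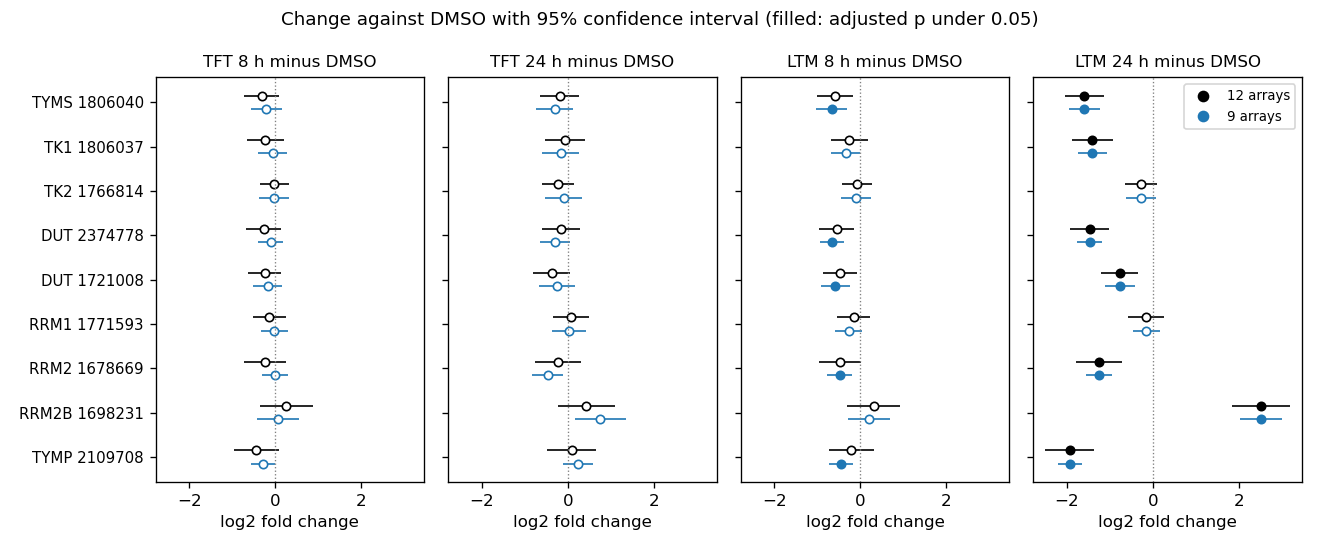
Log2 fold change of each member probe against DMSO (points) with its 95% confidence interval (lines), for the 12 arrays as labelled (black) and the 9 arrays without the 3 that stand apart (blue). Filled points passed an adjusted p of 0.05. At LTM 24 h 7 probes are filled in both fits, at LTM 8 h 5 probes only on 9 arrays, and in the TFT panels none.

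At 8 h of LTM the result turned on the arrays used. With the 12 arrays as labelled, limma called 0 of 9 member probes and 0 of 24325 probes, also with the trended and robust form of its test. At an unadjusted p under 0.05 there were 3 member probes, against 15.7% of all probes. These were TYMS (-0.59, limma adjusted p = 0.217), DUT ILMN_2374778 (-0.55, 0.226) and DUT ILMN_1721008 (-0.47, 0.26). On 9 arrays 5 member probes passed, all lower, with 29.8% of all probes called and 15.4% called lower. These were TYMS (-0.67, limma adjusted p = 0.0106), DUT ILMN_2374778 (-0.66, 0.00328), DUT ILMN_1721008 (-0.58, 0.0159), RRM2 (-0.48, 0.0198) and TYMP (-0.45, 0.0222). The 95% confidence intervals on 9 arrays were -1.03 to -0.31 for TYMS and -0.73 to -0.17 for TYMP.

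TK1 at 8 h of LTM was at -0.34 on 9 arrays (limma adjusted p = 0.124) and RRM2B at 0.19 (95% confidence interval -0.30 to 0.68, adjusted p = 0.564). The size of the RRM2B change at 24 h lies outside this interval. For TYMP at 8 h the arrays of the label disagreed. The array labelled LTM 8 h replicate 1 was at 8.23, above both DMSO arrays, while replicates 2 and 3 were both at 7.52, below both. Without that array alone TYMP was at -0.45 and did not pass (limma adjusted p = 0.158).

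**Figure D4:**
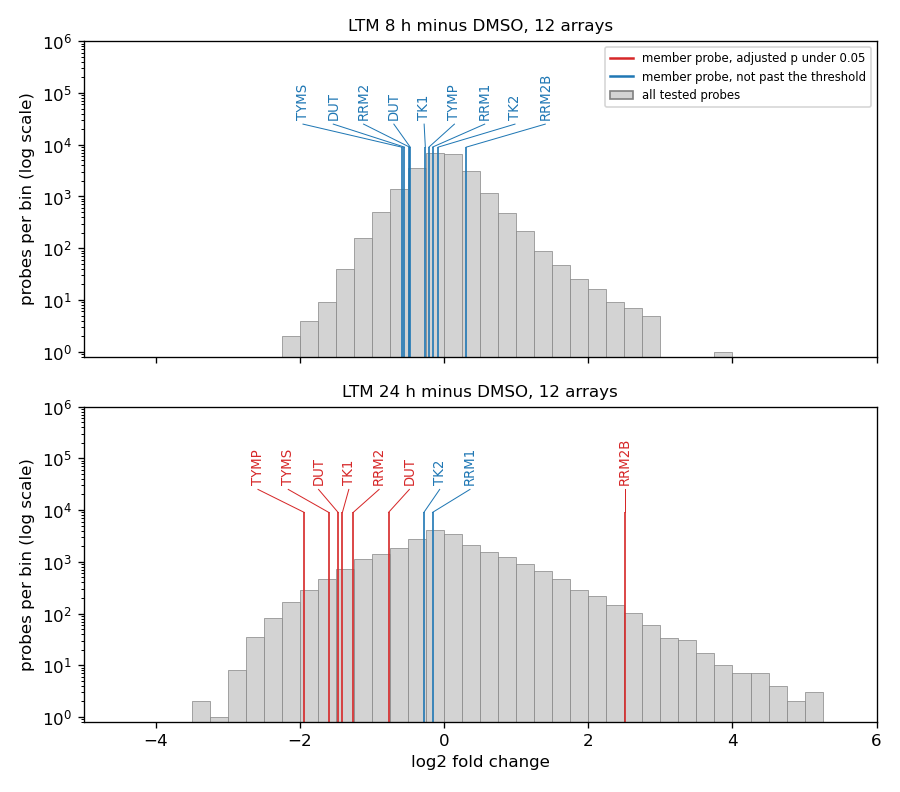
Distribution of log2 fold changes against DMSO over all tested probes (grey bars, log axis) for LTM 8 h and LTM 24 h on 12 arrays, with each member probe as a line (red if its adjusted p was under 0.05, otherwise blue). At 8 h the members lie between -0.59 and 0.31. At 24 h they range from -1.94 (TYMP) to 2.51 (RRM2B), with RRM1 and TK2 near 0.

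The change between 8 h and 24 h of LTM was tested directly. Of 9 member probes 6 passed (5 lower, 1 higher), against 33.4% of all probes (16.3% lower, 17.1% higher), and 6 on 9 arrays (43.3%). RRM2B rose by 2.20 between the times (SE 0.28, limma adjusted p = 0.000213). TYMP fell by 1.73, TK1 by 1.15, TYMS by 1.01, DUT ILMN_2374778 by 0.92 and RRM2 by 0.78, with limma adjusted p from 0.00031 to 0.0184. DUT ILMN_1721008 (-0.30, adjusted p = 0.233), TK2 (-0.20, 0.38) and RRM1 (0.01, 0.986) did not pass.

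TFT, the thymidine analog, gave no member call. At 8 h limma called 0 of 9 member probes on 12 arrays (0 at an unadjusted p under 0.05, against 9.04% of all probes) and 0 on 9 arrays, with 1.66% of all probes called. The trended and robust form of the test called 0 of all probes here, at TFT 24 h, between the TFT times and between the drugs at 8 h. TYMS was at -0.32 on 12 arrays (95% confidence interval -0.73 to 0.08) and at -0.21 on 9 (-0.56 to 0.15). TYMP was at -0.44 (-0.96 to 0.08) and on 9 arrays at -0.28 (-0.56 to 0.00, limma adjusted p = 0.28). The array labelled TFT 8 h replicate 3 was the lowest of its group in TYMS, TK1, both DUT probes, RRM1, RRM2 and TYMP and the highest in RRM2B.

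At 24 h of TFT the counts were 0 of 9 on 12 arrays (0 at an unadjusted p under 0.05, against 5.06% of all probes) and 0 on 9 arrays, with 0.382% of all probes called. On 9 arrays, where the group is 1 array, RRM2B stood at 0.75 (95% confidence interval 0.16 to 1.35, unadjusted p = 0.0183, limma adjusted p = 0.236) and RRM2 at -0.47 (-0.83 to -0.11, unadjusted p = 0.016, adjusted p = 0.223). These directions are those of LTM 24 h, but the comparisons share the DMSO arrays and neither value passed. TYMS (-0.31, -0.75 to 0.12) and TK1 (-0.17, -0.59 to 0.25) had intervals that include 0 and exclude a change of the size seen after 24 h of LTM. Between 24 h and 8 h of TFT, limma called 0 of 9 probes on 12 arrays, with 1 member probe, TYMP (0.53), at an unadjusted p under 0.05 (2.87% of all probes). On 9 arrays it also called 0, against 0.608% of all probes.

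The drugs were then set against each other. At 24 h, 6 member probes passed between LTM and TFT (5 lower and 1 higher in LTM), against 40.2% of all probes (20.3% lower, 19.9% higher), and on 9 arrays 7 (49.2%), the added one being DUT ILMN_1721008 (-0.52, limma adjusted p = 0.0388). TYMP was lower in LTM by 2.03 on the log2 scale, and RRM2B was higher by 2.08 (SE 0.31, limma adjusted p = 0.000466). TYMS (-1.41), TK1 (-1.34), DUT ILMN_2374778 (-1.31) and RRM2 (-1.02) were lower in LTM. At 8 h limma called 0 of 9 on 12 arrays (0 at an unadjusted p under 0.05, against 3.47% of all probes). On 9 arrays it called DUT ILMN_2374778 (-0.55, adjusted p = 0.00959) and RRM2 (-0.48, adjusted p = 0.0225), both lower in LTM, against 27.3% of all probes. TYMS (-0.46, adjusted p = 0.0564) missed the threshold there.

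The neighbouring pathways were read from gene lists, with each gene taken by its brightest passing probe. Against DMSO at LTM 24 h, 23.3% of 12131 genes rose and 23% fell. Of 10 genes listed for the folate cycle that serves TYMS, 8 were measured, of which 3 rose and 3 fell (median -0.35). The falls were the folate carrier SLC19A1 (-1.77, SE 0.29), the cytosolic serine hydroxymethyltransferase SHMT1 (-1.73, SE 0.23) and the folate hydrolase GGH (-1.26, SE 0.27). The rises, named after their values were seen, were all mitochondrial enzymes of the cycle: SHMT2 (1.02), MTHFD2 (0.84) and MTHFD1L (0.83).

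Of 25 genes listed for salvage and turnover of nucleosides and deoxynucleotides, 20 were measured, 10 fell and 2 rose (median -0.62), and on 9 arrays 14 fell and 2 rose against 31.1% and 30.2% of genes. The largest falls were the nucleoside diphosphate kinases NME3 (-2.85, SE 0.31) and NME4 (-2.60, SE 0.25) and NUDT1 (-2.43, SE 0.23), which hydrolyses oxidised purine nucleotides. The rises, also named after their values were seen, were uridine phosphorylase UPP1 (1.26) and the deoxycytidylate deaminase DCTD (0.87), which feeds deoxyuridylate to TYMS.

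Purine synthesis went the other way, with 6 of 10 measured genes higher and 1 lower (median 0.57). They included ATIC (0.92), GART (0.78) and, as the one fall, PFAS (-0.82). In pyrimidine synthesis 1 of 4 measured genes fell, CAD, the enzyme of the first steps (-1.34, SE 0.44, limma adjusted p = 0.0304), and 0 rose. On 9 arrays UMPS, at 0.49 in both fits, passed as well (limma adjusted p = 0.0855 on 12 arrays and 0.00855 on 9). The pyrimidine-degrading DPYD, the 1 measured gene of its list, rose by 1.12. Of 4 measured nucleoside and nucleotide transporters, SLC25A36, a mitochondrial pyrimidine nucleotide carrier, rose by 0.75. On 9 arrays SLC29A3 was also called, lower by a log2 difference of -0.36 (limma adjusted p = 0.0458, against 0.257 on 12 arrays). The counts of the folate, purine and pyrimidine breakdown lists were the same on 9 arrays as on 12.

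**Figure D5:**
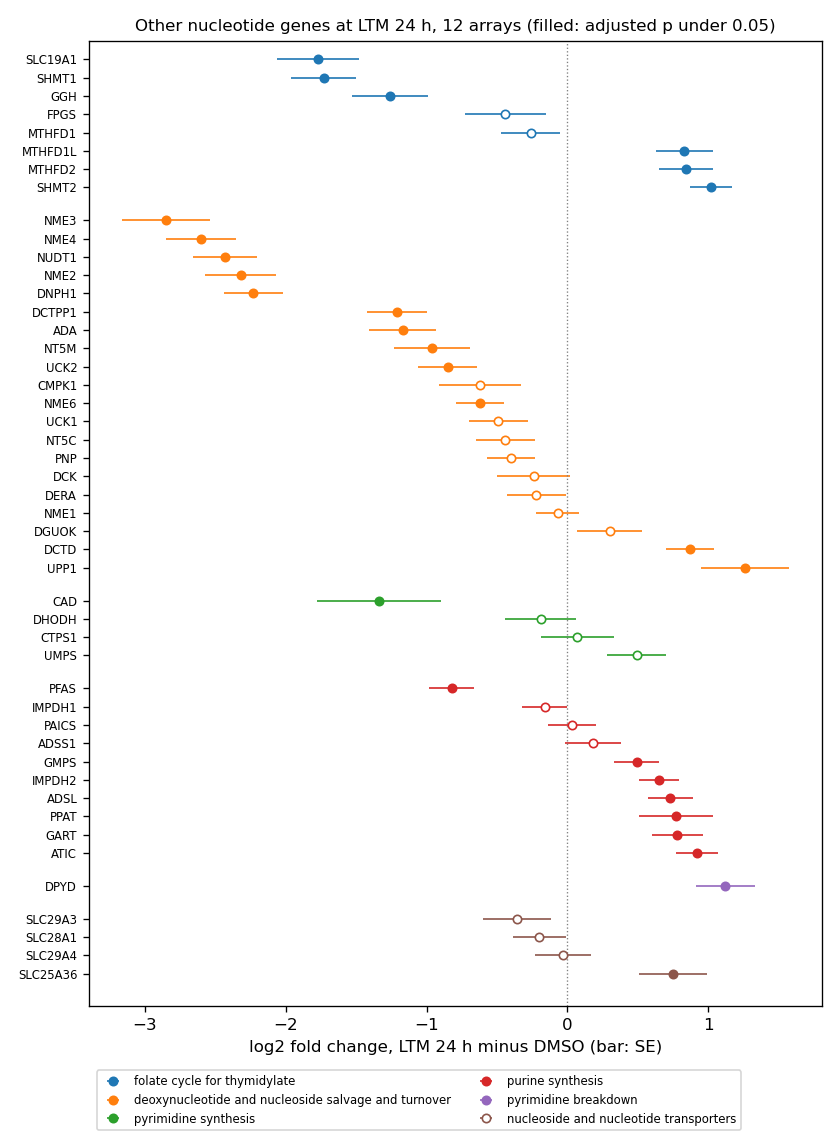
Log2 fold change of the other nucleotide genes at LTM 24 h against DMSO on 12 arrays, with the SE as a bar and the gene list as the colour. Filled points passed an adjusted p of 0.05. Salvage and turnover genes reach from -2.85 (NME3) to 1.26 (UPP1), and 6 of the 10 purine genes are filled to the right of 0.

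At LTM 8 h the lists were at 0 calls on 12 arrays, where 0 of all 12131 genes were called. On 9 arrays, where 17.3% of genes were higher and 16.8% lower, the folate list had 2 lower genes, SHMT1 (-0.73) and GGH (-0.73). Salvage and turnover had 6 lower and 2 higher of 20, led by NME3 (-0.84) and CMPK1 (-0.77). CAD was lower (-0.94) and DHODH (0.49) and UMPS (0.50), the later enzymes of pyrimidine synthesis, were higher, while 0 of 10 purine genes passed. For TFT at either time, 0 genes of these lists passed on 12 arrays, where 0 of all 12131 genes passed. At TFT 8 h on 9 arrays 0 list genes passed, where only 1.07% of all genes were higher and 0.899% lower.

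Some markers moved with LTM 24 h as well. The fibroblast marker LUM rose by 1.06, while COL1A2 (0.01) and DCN (0.17) did not pass. The summed log2 level of the 5 fibroblast markers was 25.26 to 25.92 in LTM 24 h against 24.12 to 24.20 in DMSO. It was 24.61 to 25.06 in LTM 8 h, 23.98 to 24.51 in TFT 8 h and 23.99 to 25.34 in TFT 24 h. THY1 was undetected on every array, and COL1A1 was detected on 1, DCN on at most 3 and COL1A2 on at most 5. SOX10 fell by 1.02 and MITF rose by 1.48, and the melanocyte markers summed to 39.33 to 40.41 against 39.06 to 39.93. Their part in the values above was not tested.

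For each member whose brightest probe varied with an SD of at least 0.5 over the 12 arrays, the genes with the most similar pattern were found by the root mean square difference of the centred log2 intensities. TYMS was closest to DUT (0.09), to the long noncoding RNA DANCR (0.09) and to the receptor phosphatase PTPRF (0.10). DUT was closest to CHAF1B, a chromatin assembly subunit (0.08), to PTPRF (0.08) and to TYMS (0.09). TYMS and DUT, read by its brighter probe ILMN_2374778, were thus among each other's 3 nearest of 12131 genes, and PTPRF was among the 3 of both. The second DUT probe, ILMN_1721008, with an SD of 0.29, was not compared.

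TK1 was closest to the mitochondrial ATPase ATAD3A (0.08), the complex I subunit NDUFS7 (0.08) and CCNQ (0.09). TYMP was closest to ATP5IF1, an inhibitor of the ATP synthase (0.10), DGCR6L (0.10) and DGCR6 (0.11), which are near-identical copies of each other. RRM2B had no gene so near, its closest being ATOSA, the ubiquitin ligase RNF144B and the polyamine enzyme ODC1, each at 0.22. These differences describe 12 arrays that share treatments and carry no test.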

How the data were processed

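RNA from 12 samples was labelled with biotin (300 ng each, per the labels' protocols) and read on Illumina BeadChip arrays. The authors exported a linear intensity for every probe from GenomeStudio (named in the submitters' processing notes without a version). On each array 27.3% to 29.3% of the deposited intensities were below 0, so a background had already been taken off. Detection p-values stand beside them, per the file headers. Mean intensity per array was 314.62 to 415.44, and 41.3% to 43.5% of the 47230 probes were detected. A processed table deposited by the authors, of linear intensities for 38223 probes, served only as an alternative, since its background correction and normalization are not stated.

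Intensities were corrected and normalized with limma 3.58.1 (neqc, background from the detection p-values, offset 16, quantile normalization, log2) in R 4.3.3. Probes detected at a p under 0.05 on at least 2 arrays were fitted as 5 group means (lmFit, then eBayes with two-sided tests; residual degrees of freedom 7, or 4 on 9 arrays), with Benjamini-Hochberg adjustment over 24325 probes. Replicate numbers in the labels were not taken as pairs. Genes were named through the platform's probe table, in which 27004 probes had 1 symbol, 4 had several and 11215 of the processed table were not listed. Gene coordinates and promoter windows are those of RefSeq on GRCh38.p14, and probe sequences were not used. The fitting was tested on simulated data. The members, lists, markers and the 9-array fit were chosen with earlier results of these data known, and the p-values do not allow for that. Named list genes were up to 3 called genes with the largest absolute change per list and comparison. Alternatives were the filter, scaling, offset, background correction, the authors' table, a replicate block, the groups in the fit, the form of eBayes and leaving out each array.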

Additional observations from a re-analysis of the deposited data

Results flagged for a closer look

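The effect of treatment differed between the drugs at 24 h for 6 member probes, by limma's test of LTM against TFT with Benjamini-Hochberg adjustment. The log2 differences, LTM minus TFT, were -1.41 for TYMS, -1.34 for TK1, -1.31 for DUT ILMN_2374778, -1.02 for RRM2, 2.08 for RRM2B and -2.03 for TYMP. Both LTM 24 h arrays lay beyond both TFT 24 h arrays in each of the 6. These groups also did not overlap in 70.9% of all probes, so such a separation was common. On 9 arrays, with TFT 24 h at 1 array, the values were -1.29, -1.24, -1.18, -0.79, 1.76 and -2.17 in the same order.

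The LTM arrays of 24 h and of 8 h differed in the same 6 probes. The DMSO arrays carry no time, so a change in the effect of LTM cannot be told apart from time in culture. The log2 differences, 24 h minus 8 h, were -1.01 for TYMS, -1.15 for TK1, -0.92 for DUT ILMN_2374778, -0.78 for RRM2, 2.20 for RRM2B and -1.73 for TYMP. The array labelled LTM 8 h replicate 1 enters this comparison, and without the 3 arrays that stand apart the values were -0.93, -1.07, -0.81, -0.77, 2.32 and -1.49. Both comparisons use the same LTM 24 h arrays and are not independent of each other.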

How the results depend on the processing

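Leaving out the 3 arrays that stand apart raised the member probes called at LTM 8 h against DMSO from 0 to 5 and between LTM and TFT at 8 h from 0 to 2. The share of all probes called went from 0 to 29.8% and from 0 to 27.3% in the same order. Under the other alternatives the counts of member calls stayed within 1.5 times of those reported, and 743 of the 756 values of single probes under an alternative kept direction and side of the threshold. Leaving out 1 array at a time gave 6 to 7 member calls at LTM 24 h, 5 to 6 between LTM and TFT at 24 h, 5 to 6 between the LTM times, and 0 in the other comparisons. In these, only probes short of the threshold changed sign: TK2 at TFT 8 h (-0.10 to 0.06) and at LTM 8 h (-0.16 to 0.01), TK1 at TFT 24 h (-0.17 to 0.04) and TYMP at TFT 24 h (-0.06 to 0.23). The TK2 values were 0.06 without DMSO replicate 1 and without TFT 8 h replicate 1, and 0 and 0.01 without DMSO replicate 1 and without LTM 8 h replicate 2. Without TFT 24 h replicate 2, TK1 was 0.04 and TYMP -0.06. The causes were not tested. Over all probes the leave-one-out calls at LTM 24 h were 6158 to 11055, with 6446, 6370 and 6158 without DMSO replicate 1, DMSO replicate 2 and LTM 24 h replicate 2, against 9952. They were 6054 to 10903 between the drugs at 24 h (9775 with all arrays) and 4322 to 9111 between the LTM times (8119), each lowest without LTM 24 h replicate 2. At LTM 8 h they were 2040 without LTM 8 h replicate 1, 58 without TFT 8 h replicate 3 and otherwise 0, and at TFT 24 h they were 2 without LTM 8 h replicate 1 and otherwise 0.

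Same-numbered arrays of different groups deviated with correlations from -0.53 to 0.63. Both extremes were between TFT 8 h and LTM 8 h, whose labels include arrays in doubt. In groups of 2 arrays the deviations mirror each other. These values therefore cannot decide whether the numbers pair the arrays, and the numbers were not taken as pairs in the main fit. With the replicate block the member calls were 7 at LTM 24 h, 6 between the drugs at 24 h, 6 between the LTM times and 0 elsewhere. The share of all probes called is not given here for this block or the crossed one below. Their member counts therefore stand without a background. With the numbers of the TFT 24 h arrays crossed, added after seeing a correlation of -0.22 between same-numbered arrays at 24 h, the count between the drugs was 6. Scaling on the 75th percentile moved the median of all probes at LTM 24 h to -0.10. Dim probes limit what small changes can be seen, as for TK2 with a scanner intensity of 54.4 to 89.6.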
